A study of Mus musculus with 12 samples.

Results

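The neuregulins and their receptors of the ErbB family were followed in the medial prefrontal cortex (mPFC) of mice after chronic social defeat (CSD). The members are 7 genes, the ligands Nrg1, Nrg2 and Nrg3 and the receptors Erbb2, Erbb3, Erbb4 and Egfr, out of 17656 genes measured on the arrays. They were chosen as the probe sets that the platform annotation assigns to exactly 1 of these genes, and the brightest would stand for a gene with several. Each member had 1 probe set of its own, and all of these were above system noise, the level below which array values carry little signal (5.75 on the log2 scale), on all 12 arrays, so that no member was lost to the filter on low values.

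The tissue came from 6 CSD mice and 6 homecage (HC) mice, with 1 Affymetrix Mouse Gene ST array per mouse. All 12 were wild type males of the C57BL/6 strain. CSD mice lived behind a perforated partition beside an aggressive CD-1 male and met it for a short bout every day, whereas HC mice were housed in groups, and tissue was taken on the day after the last bout. Both groups went through behavioral tests of sociability, in which an aggressor sat in a wire cage, and anxiety, and the results served to select the defeated mice, the brains were perfused with saline, and a white matter tract, the forceps minor, served as a border of the dissection. All values below are log2 values from the robust multi-array average (RMA), 1 log2 unit being a doubling, and differences are CSD minus HC.

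Neuregulins are growth factors with a domain like that of epidermal growth factor. Many are made as membrane proteins that proteases cut, and they bind Erbb3 or Erbb4, whereupon receptors pair, phosphorylate each other's tails and recruit adaptors that lead to the PI3 kinase and Ras pathways. In peripheral nerves, Nrg1 on axons acting on Erbb2 and Erbb3 of Schwann cells sets the thickness of myelin, while in the cortex Erbb4 is found mainly on inhibitory interneurons and Erbb3 mainly on cells of the oligodendrocyte lineage.

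Of the 7 members only Erbb3 differed between CSD and HC mice at an unadjusted limma p under 0.05. Its mean was lower in CSD mice, at 0.849 of the HC level. Erbb2 stood on the other side, with a slightly higher mean in CSD mice that did not pass, and the 3 ligands, Erbb4 and Egfr had differences between -0.06 and 0.06. No member passed the adjustment over all probe sets, and neither did any other of the 29838 probe sets tested (0% called by limma, for which the adjusted p had to lie under 0.05 with a fold of 1.2 or more, and 0 calls by the methods' t-test as well). Without adjustment limma passed 2516 probe sets, and the methods' t-test passed 2214. Among measured genes, 6.52% were lower in CSD mice and 1.89% higher at an unadjusted p under 0.05, and the 1 lower member of 7 is to be read against these shares. The direction of that background rests on 2 HC arrays. Without HC replicates 2 and 6, which had the lowest array weights (0.259 and 0.397), 3.78% of genes were lower and 5.57% higher.

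**Figure D1:**
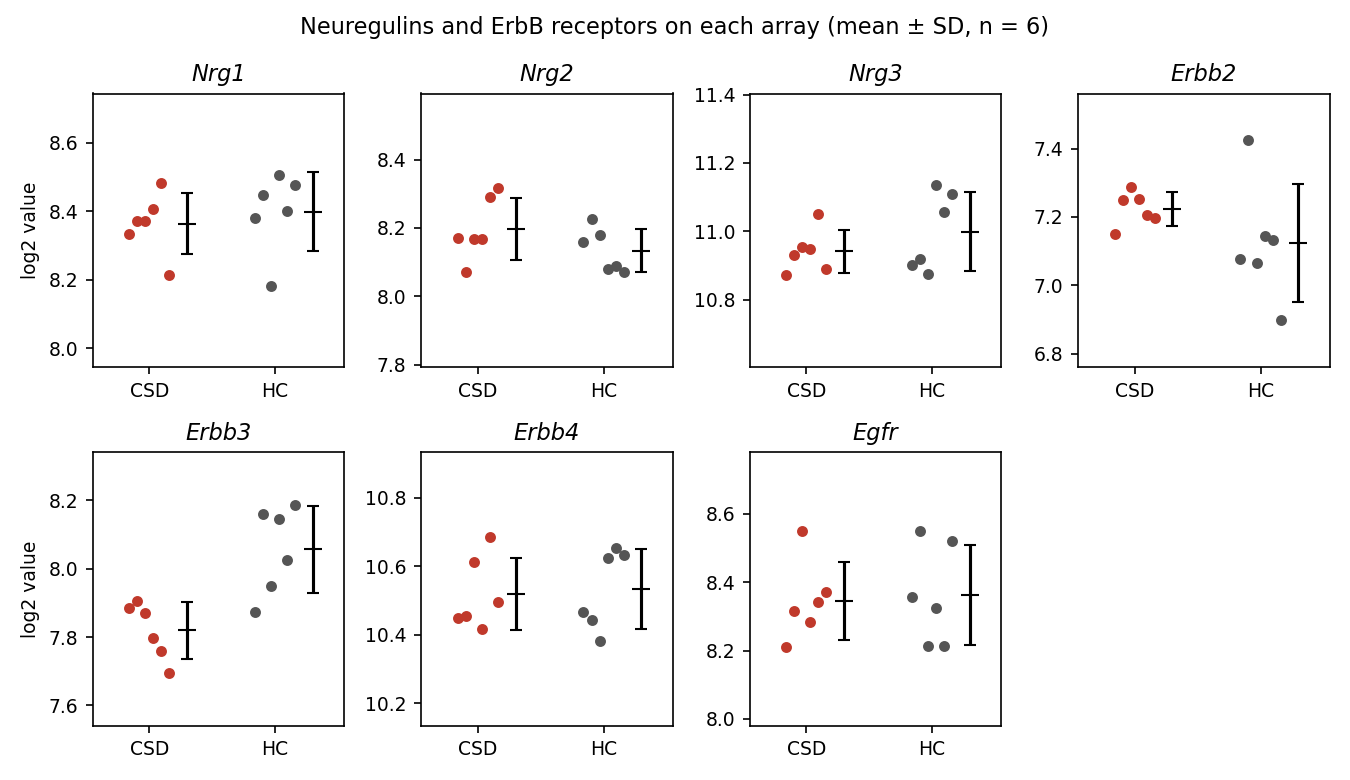
Log2 value of each member on each array, with CSD mice in red and HC mice in grey, and the mean and SD of each group beside the points (n = 6 each). The vertical axes start at different levels but span the same range, and in the Erbb3 panel 4 CSD points lie below all HC points, while in the Erbb2 panel 5 HC points lie below all CSD points and 1 lies above them.

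Among the ligands, Nrg1, the founding neuregulin, had a lowest, median and highest value of 8.21, 8.37 and 8.48 in CSD mice, against 8.18, 8.42 and 8.51 in HC mice. The groups overlapped almost fully. The difference was -0.04 (SE 0.06, limma p = 0.544, adjusted p = 0.911, exact permutation p = 0.548), with a 95% interval of -0.16 to 0.09.

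Nrg2, a neuregulin made mostly by neurons, ran at 8.07, 8.17 and 8.32 in CSD mice, against 8.07, 8.12 and 8.23 in HC mice. CSD replicates 9 and 10 were above every HC array, and the lowest values of both groups were the same to 2 decimals. The difference was 0.06 (SE 0.05, limma p = 0.200, adjusted p = 0.793, exact permutation p = 0.197, 95% interval -0.04 to 0.17).

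Nrg3, a neuregulin found mainly in the nervous system that binds Erbb4, ran at 10.87, 10.94 and 11.05 in CSD mice, against 10.87, 10.99 and 11.13 in HC mice. HC mice formed a lower and an upper trio of arrays, and the upper trio lay above every CSD array. The difference was -0.06 (SE 0.05, limma p = 0.294, adjusted p = 0.840, exact permutation p = 0.307, 95% interval -0.17 to 0.06). For all 3 ligands the interval leaves room for a change of up to 0.17 log2 units in size.

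Among the receptors, Erbb3, which binds neuregulins but has a weak kinase and signals through its partners, had a lowest, median and highest value of 7.70, 7.83 and 7.91 in CSD mice, against 7.87, 8.08 and 8.19 in HC mice. All 6 CSD arrays were below the HC mean, and 4 were below every HC array. For CSD replicate 7 this was by a very small margin, at 7.871 against 7.873 on HC replicate 1. On the HC side 5 arrays were above every CSD array, and HC replicate 1, at 7.87, was the only one inside the CSD range. The means were 7.82 ± 0.08 in CSD mice and 8.06 ± 0.13 in HC mice (SD, n = 6 each), a difference of -0.24 (SE 0.06, 95% interval -0.37 to -0.11). The limma p was 0.0018 and, adjusted over all probe sets, 0.241, and the exact permutation p was 0.00649 (two-sided, over all splits of the arrays into 6 and 6). In bulk tissue, fewer cells that express a gene and less RNA per cell cannot be told apart. The difference lay between -0.28 and -0.18 over 24 alternative settings and stayed under an unadjusted p of 0.05 in 23 of them, the exception being the fit with the replicate number as a block.

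Erbb2, the partner receptor that binds no ligand of its own, ran at 7.15, 7.23 and 7.29 in CSD mice, against 6.90, 7.11 and 7.42 in HC mice. All 6 CSD arrays were above the HC mean, 5 HC arrays were below every CSD array, and HC replicate 2 was above all of them. The nearest arrays almost met, HC replicate 4 at 7.145 and CSD replicate 2 at 7.15. The difference was 0.10 (SE 0.07, limma p = 0.172, adjusted p = 0.769, exact permutation p = 0.214, 95% interval -0.05 to 0.25). The value rests on single HC arrays. After centring within groups, Erbb2 followed the array median over all probe sets (r = 0.82, rho = 0.57, permutation p = 0.00916 and 0.0642, unadjusted). For the other members this r lay between -0.08 and 0.48. HC replicate 2 had the highest median over all probe sets of the 12 arrays (7.69, the others lying between 7.50 and 7.63), and without it the difference was 0.16, which limma passed at an unadjusted p under 0.05 (adjusted p = 0.285). Without HC replicate 6, which had the lowest median, the difference was 0.05 (limma, adjusted p = 0.871). Another probe set, which the annotation shares between Erbb2 and Sympk and which was left out by the rule, had a mean of 6.73 ± 0.19 in CSD mice and 6.65 ± 0.16 in HC mice (SD, n = 6 each), a difference of 0.08 (SE 0.09, limma, adjusted p = 0.874).

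Erbb4, the neuregulin receptor with a full kinase, ran at 10.42, 10.48 and 10.69 in CSD mice, against 10.38, 10.55 and 10.65 in HC mice. In both groups some arrays lay near 10.4 and others near 10.6, and the group means differed by -0.01 (SE 0.06, limma p = 0.817, adjusted p = 0.979, exact permutation p = 0.866, 95% interval -0.15 to 0.12). Egfr, the receptor of epidermal growth factor, which can pair with the neuregulin receptors, ran at 8.21, 8.33 and 8.55 in CSD mice, against 8.21, 8.34 and 8.55 in HC mice. The ranges coincided, with a difference of -0.02 (SE 0.07, limma p = 0.806, adjusted p = 0.976, exact permutation p = 0.827, 95% interval -0.17 to 0.14).

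Whether members differed from each other in their response was asked for each of the 21 pairs, from the within-array difference of the 2 members. Erbb2 and Erbb3, the pair that forms the main neuregulin receptor of myelinating glia in nerves, moved apart the most. The difference of their differences was 0.34, with an exact permutation p of 0.00216, the smallest that these splits can give, and an adjusted p over the pairs of 0.0455 (exact test). Since the members were chosen with earlier results known, this adjusted p is not independent evidence. Without CSD replicates 6, 7, 8, 9 or 10 or HC replicate 6, each left out on its own, the difference kept its sign at 0.27 to 0.35, with an adjusted exact p between 0.0606 and 0.0909. Erbb3 against each of the other 5 members gave differences of 0.18 to 0.30 in size, all in the direction of a lower Erbb3 and all with an adjusted exact p of 0.0758. The 15 pairs without Erbb3 had adjusted exact p-values between 0.374 and 0.97.

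**Figure D2:**
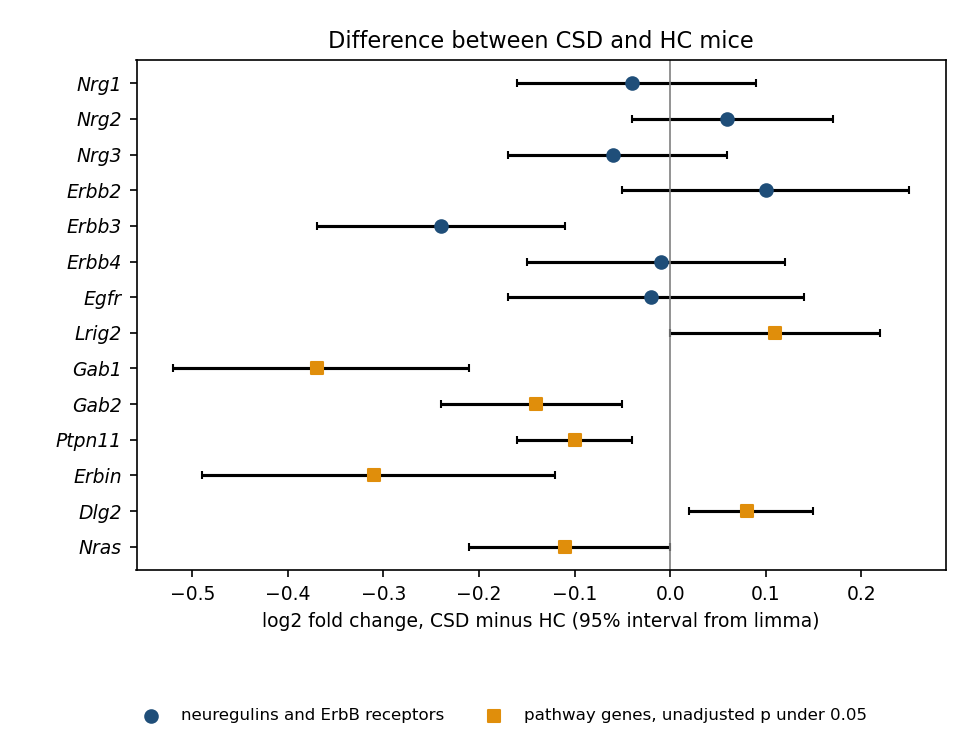
Log2 fold change, CSD minus HC, of the 7 members (blue circles) and of the 7 pathway genes with an unadjusted limma p under 0.05 (orange squares), with 95% intervals from limma (n = 6 CSD and 6 HC arrays). Among the members only the interval of Erbb3 lies wholly below 0, and those of the other 6 include 0.

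Within groups the members varied about as much as other genes. The SD of the arrays around their group mean was lowest for Nrg2 (0.078) and highest for Egfr (0.131), against a median of 0.096 over all measured genes. Nrg3 and Erbb4 varied together from mouse to mouse: after centring within groups, Pearson's r was 0.86 and Spearman's rho 0.78 over 12 arrays (permutation p = 0.00346 and 0.0106, adjusted over 21 pairs 0.0513 and 0.211). The value of r was 0.77 within CSD mice, 0.94 within HC mice and 0.83 without the 2 arrays farthest from the median. Nrg1 and Nrg3 had an r of 0.74 and a rho of 0.73 (permutation p = 0.00489 and 0.0201, adjusted 0.0513 and 0.211), with an r of 0.82 within CSD mice, 0.72 within HC mice and 0.76 without the 2 farthest arrays. Neither relation passed the adjustment.

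Markers of cell types moved with the groups too. All 11 measured markers of mature oligodendrocytes, the cells that make myelin, were lower in CSD mice at an unadjusted p under 0.05. Among all genes 6.52% were, and the median difference of the markers was -0.58. Since the marker lists were chosen with earlier results of these data known, this count is not independent evidence. The mean of the list ran between 9.38 and 9.91 in CSD mice, against 9.94 to 10.54 in HC mice. The groups did not overlap, but the gap was narrow, from 9.914 on CSD replicate 6 to 9.935 on HC replicate 2. Taken singly, 7 of the 11 markers were without overlap, with lower values in CSD mice. Such a separation in this direction held for 0.935% of all genes. No marker was at the noise level on any array. Gjc3, a connexin of oligodendrocytes, had the smallest p, with a median of 9.79 in CSD mice against 10.47 in HC mice (difference -0.68, limma, adjusted p = 0.0673). Mog, a protein of the outer myelin surface, had a median of 8.84 in CSD mice against 9.74 in HC mice (difference -0.84, limma, adjusted p = 0.0986). Of 6 markers of oligodendrocyte precursors, which also carry Erbb3, Lhfpl3 and Gpr17 were lower at the unadjusted threshold, each at -0.13. This was 33.3% of the list, against 6.52% of all genes. Lhfpl3 also passed in 23 of 24 alternative settings but Gpr17 in only 13. By mean, 3 of the 6 were lower in CSD mice and 3 higher (Pdgfra 0.01, Cspg4 0.04 and C1ql1 0.03), with a list median of 0.0. The list mean ran between 8.74 and 8.84 in CSD mice, against 8.76 to 8.93 in HC mice.

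Erbb3 and the mature oligodendrocyte markers were then compared from array to array. The relation was close within CSD mice (r = 0.93) and looser within HC mice (r = 0.45), a difference that was not tested. Over all 12 arrays, centred within groups, r was 0.61 and rho 0.52, which did not pass (permutation p = 0.0608 and 0.138, adjusted over 49 relations of 7 members with 7 marker lists 0.325 and 0.483). Without the 2 arrays farthest from the median of the list, CSD replicate 10 and HC replicate 2, r was 0.89. HC replicate 2 had the lowest list mean of the HC arrays (9.94) with an Erbb3 value among the higher ones. Over all 12 arrays, 2 other lists had a higher r with Erbb3. Excitatory neuron markers gave an r and a rho of 0.73 (permutation p = 0.0152 and 0.0157, adjusted 0.223 and 0.206), with an r of 0.46 within CSD mice, 0.87 within HC mice and 0.61 without the 2 farthest arrays. Microglial markers gave an r of 0.67 and a rho of 0.72 (permutation p = 0.0294 and 0.0168, adjusted 0.26 and 0.206), with an r of 0.83 within CSD mice, 0.60 within HC mice and 0.63 without the 2 farthest arrays. None of the relations of Erbb3 passed the adjustment. The part that the number of oligodendrocytes has in the lower Erbb3 level was not tested.

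Nrg2 ran the other way. Arrays with more oligodendrocyte marker signal had less Nrg2, with r = -0.83 and rho = -0.88 over 12 arrays centred within groups (permutation p = 0.00148 and 0.00043, adjusted over the 49 relations 0.0725 and 0.0211). It was the only one of the 49 that passed, and it did so by rho and not by r. The value of r was -0.81 within CSD mice, -0.92 within HC mice and -0.72 without the 2 farthest arrays. RMA values are relative within an array, and what share of this relation comes from the makeup of the tissue was not tested.

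**Figure D3:**
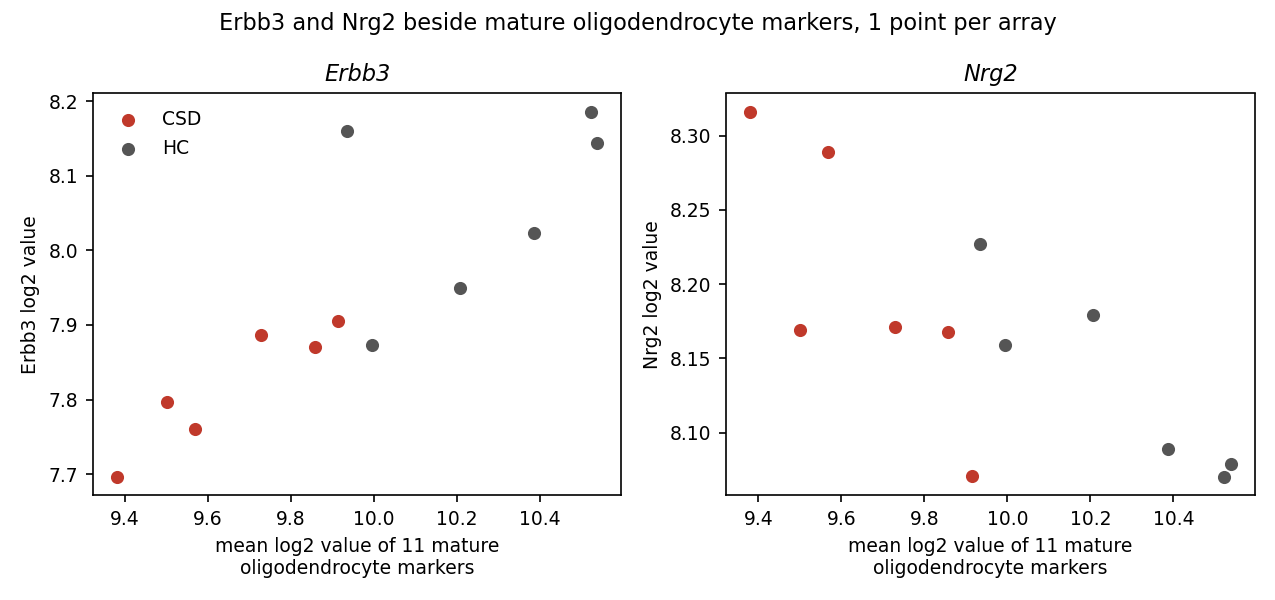
Log2 value of Erbb3 (left) and Nrg2 (right) on the vertical axis against the mean log2 value of 11 markers of mature oligodendrocytes on the horizontal axis, with 1 point per array (CSD red, HC grey). The values are not centred within groups, so the difference between CSD and HC mice is part of what is seen. Erbb3 is higher and Nrg2 lower on arrays with more marker signal. Centred within groups, the Erbb3 relation did not pass (r = 0.61, permutation p = 0.0608). HC replicate 2, at a marker mean of 9.94 and an Erbb3 value above 8.1, stands off the Erbb3 trend.

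The cells known for the other receptors gave fewer differences. None of the 9 interneuron markers and none of the 6 markers of excitatory cortical neurons passed an unadjusted p of 0.05. At that threshold 6.52% of all genes were lower and 1.89% higher. By mean, 8 of the interneuron markers (88.9%) and 4 of the excitatory ones (66.7%) were lower in CSD mice, against 57.1% of all genes. The interneuron list mean ran between 9.51 and 9.68 in CSD mice, against 9.58 to 9.73 in HC mice, and that of excitatory neurons between 11.47 and 11.63 in CSD mice, against 11.48 to 11.72 in HC mice. The smallest p-values in these lists belonged to Dlx1 (-0.20) and Sst (-0.06) among interneuron markers and to Neurod2 (-0.08) and Nrgn (-0.04) among excitatory ones. Erbb4 had an r of -0.03 and a rho of -0.01 with the interneuron list (permutation p = 0.926 and 0.992), with an r of 0.45 within CSD mice and -0.49 within HC mice. Among 9 astrocyte markers Aqp4, a water channel, was lower at an unadjusted p under 0.05 (-0.18), which held in 18 of 24 alternative settings, and the next, Gja1, had a difference of -0.11. Among 7 microglial markers P2ry12, a receptor for nucleotides, was lower in the same sense (-0.14) but passed in only 11 of 24 alternative settings, and Cx3cr1 had a difference of -0.07. Among 8 endothelial markers these were Tek, the angiopoietin receptor, and Emcn, a sialomucin, both at -0.21. They passed in 23 and 22 of 24 alternative settings. For Tek every CSD array was below every HC array (limma p = 0.00424, exact permutation p = 0.00216), which held for 0.935% of all genes. None of these markers passed the adjustment. The passing markers made up 11.1% of the astrocyte list, 14.3% of the microglial list and 25.0% of the endothelial list. Among all genes 6.52% were lower at that threshold. The means of the 3 lists overlapped between the groups (astrocytes 10.7 to 10.8 in CSD mice and 10.66 to 10.9 in HC mice, microglia 8.61 to 8.74 in CSD mice and 8.64 to 8.83 in HC mice, endothelial cells 8.4 to 8.64 in CSD mice and 8.53 to 8.77 in HC mice).

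Beyond the members, 60 genes of the pathway were measured, in 6 lists ordered along it. At an unadjusted p under 0.05, 5 of them (8.33%) were lower and 2 (3.33%) higher in CSD mice, against 6.52% and 1.89% of all genes. The median difference was -0.03, against -0.01 over all genes, and 73.3% had a lower mean in CSD mice, against 57.1% of all genes. None passed the adjustment. With each array centred on its median, 10 were lower and 0 higher, against 8.49% and 1.53% of all genes at that setting.

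None of the 7 measured other ligands of ErbB receptors passed. Tgfa, transforming growth factor alpha, which binds Egfr, came nearest, with a difference of -0.10 (limma, adjusted p = 0.601, exact permutation p = 0.0584), and Nrg4, a neuregulin ligand of Erbb4, had a difference of -0.08 (limma, adjusted p = 0.761). None of the 9 genes that cut ligands and receptors passed. Ncstn, a subunit of the gamma-secretase that cuts Erbb4 within the membrane, had a difference of -0.08, and Bace2, a relative of the protease Bace1 that cuts Nrg1, one of -0.09. Of 12 genes that restrain ErbB receptors, Lrig2, a membrane protein with leucine-rich repeats, was higher in CSD mice, with a difference of 0.11 (limma, adjusted p = 0.588), and passed in 11 of 24 alternative settings. Its relative Lrig3 had a difference of -0.14 and did not pass.

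The adaptors and scaffolds held most of the lower genes, 4 of 13 (30.8%), with 1 higher (7.69%). The shares were 6.52% lower and 1.89% higher among all genes, and 8.33% and 3.33% among all pathway genes. Since the lists were chosen with earlier results of these data known, this share is not independent evidence. Gab1 and Erbin were named because they had the 2 smallest p-values of the list. The other passing genes, Gab2, Ptpn11 and Dlg2, were named after their values were seen. Gab1, a docking protein that carries PI3 kinase and the phosphatase Shp2 to activated receptors, had a lowest, median and highest value of 8.96, 9.09 and 9.29 in CSD mice, against 9.32, 9.44 and 9.70 in HC mice. The groups did not overlap, which held for 0.935% of all genes in this direction. The difference was -0.37 (SE 0.07, limma p = 0.000202, adjusted p = 0.132, exact permutation p = 0.00216).

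Ptpn11, the gene of Shp2, was the other pathway gene with no overlap, with a much smaller difference. It ran at 10.49, 10.52 and 10.53 in CSD mice, against 10.58, 10.62 and 10.67 in HC mice, a difference of -0.10 (SE 0.03, limma p = 0.00342, adjusted p = 0.312, exact permutation p = 0.00216). Erbin, a scaffold that binds Erbb2 at the membrane, ran at 9.51, 9.76 and 9.87 in CSD mice, against 9.87, 9.97 and 10.28 in HC mice. The groups met at their edges only, and the difference was -0.31 (SE 0.08, limma p = 0.00306, adjusted p = 0.302, exact permutation p = 0.00433). Gab2, a relative of Gab1, ran at 9.19, 9.31 and 9.39 in CSD mice, against 9.37, 9.46 and 9.50 in HC mice, a difference of -0.14 (limma, adjusted p = 0.33). Dlg2, a scaffold of the synapse, was higher, running between 11.95 and 12.06 in CSD mice, against 11.86 to 11.96 in HC mice (difference 0.08, limma, adjusted p = 0.467).

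**Figure D4:**
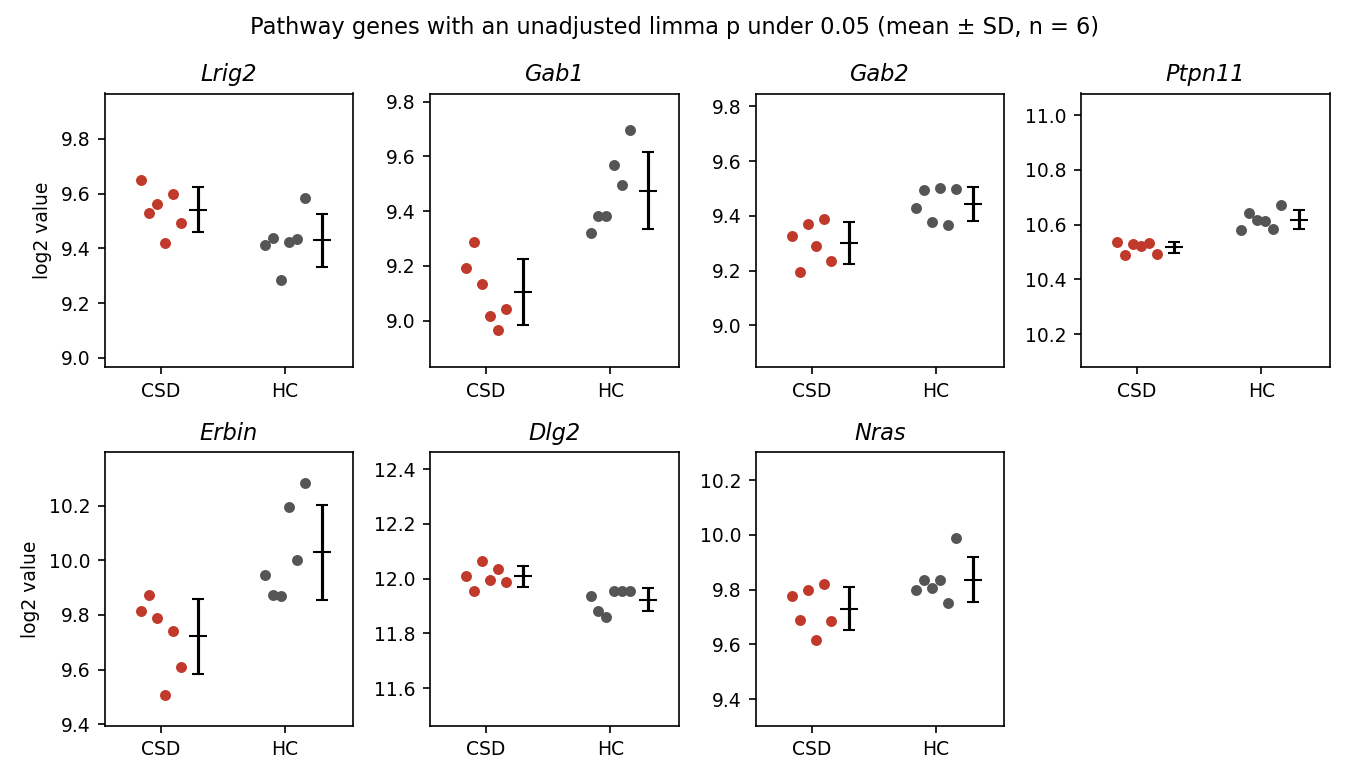
Log2 value on each array of the 7 pathway genes with an unadjusted limma p under 0.05, CSD mice in red and HC mice in grey, with the mean and SD of each group (n = 6 each). The vertical axes start at different levels and span the same range. The groups are apart for Gab1 and Ptpn11 and meet or overlap for the other 5.

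None of the 14 genes of the PI3 kinase, Akt and mTOR branch passed, against 6.52% lower and 1.89% higher among all genes, with a median difference of -0.02. Pik3r3, a regulatory subunit of PI3 kinase, had a difference of -0.07, and the kinase gene Mtor one of -0.06. Of 5 measured genes of the Ras and MAP kinase branch, Nras, a Ras GTPase, passed at -0.11 (limma p = 0.0453, adjusted p = 0.576, exact permutation p = 0.0455), and did so in 13 of 24 alternative settings. Map2k1, the kinase gene of MEK1, had a difference of -0.05 and did not pass by limma (p = 0.0917, adjusted p = 0.685), although its exact permutation p was 0.0108. The markers of mature oligodendrocytes were lower in the same CSD mice, and their part in the lower Gab1, Gab2, Ptpn11, Erbin and Nras was not tested.

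Genes whose values followed a member most closely from array to array were taken as the 3 with the highest within-group r over the 12 arrays, out of all measured genes. These r are high by choice and are given as a description. For Erbb3 they were Pacs2 (r = 0.949), Jmjd4 (0.93) and Plk4 (0.914). Pacs2, a sorting protein, had a difference of -0.18 between CSD and HC mice (limma, adjusted p = 0.203), and Jmjd4 and Plk4 had -0.06 each. For Erbb4 they were Nrxn3, a presynaptic adhesion protein, Neto1, an auxiliary subunit of glutamate receptors, and Atf2, a transcription factor, at r of 0.946 to 0.96. For Erbb2 they were Plekhd1, Hoxb6 and Myo15, at 0.953 to 0.969, and for Egfr Elk1, Sun1 and Pqbp1, at 0.929 to 0.97. Among the ligands, Nrg1 ran with Arhgef11, Zfp697 and Pcdhb19 (0.914 to 0.925), Nrg2 with Dqx1, the serotonin receptor gene Htr4 and the stress hormone receptor gene Crhr2 (0.921 to 0.929), and Nrg3 with Rfx7, Pgm2l1 and Lrrc8b (0.922 to 0.943).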

How the data were processed

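One Affymetrix Mouse Gene ST array was run per mouse (6 CSD, 6 HC). The log2 values were deposited by the authors after RMA in the Affymetrix Expression Console (versions not given in the sources used here). This method removes background, makes the distributions of the arrays alike and combines the probes of a probe set, so values are relative and were not compared between genes. In the deposited values the array medians still ran from 7.50 to 7.69.

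Values were floored at system noise (20th percentile of all values), and 29838 of 35556 probe sets with a value above it were kept. CSD and HC were compared with limma 3.58.1 in R 4.3.3 (lmFit, eBayes, two-sided, Benjamini-Hochberg adjustment over all kept probe sets). Single members and pairs had exact permutation tests, and relations 100000 permutations within groups. The fit was tested on simulated data.

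The annotation of 2016 names 1 gene for 21789 probe sets, several for 1621 and none for 12146. The members and lists were chosen with earlier results of these data known. Named were the members, the 2 genes of each list with the smallest p and the 3 genes most like each member. Some listed genes were not analysed here. The alternatives were the methods' t-test, other floors, filters, probe sets, scalings and variance models, array weights, a block for the number in the sample titles, and leaving out arrays. Leaving out HC replicates 2 and 6 together was added after seeing the data. Precision is limited by the number of arrays.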

Additional observations from a re-analysis of the deposited data

Results flagged for a closer look

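The mean of the oligodendrocyte precursor markers on HC replicate 2 stood apart from the other HC arrays. It was 8.93, against 8.82 on the next array, and this gap was 0.67 of the range of the HC group, above Dixon's limit for 6 samples. Of 28 sets of 6 arrays examined for such gaps (7 members and 7 marker lists in CSD and HC mice), this was the only one, and chance flags about 5%. The same array had the highest Erbb2 value of all arrays and the lowest mean of mature oligodendrocyte markers in the HC group. It also had the highest array median (7.69), the lowest array weight (0.259) and the highest means of microglial (8.83) and endothelial markers (8.77). For the interneuron, excitatory neuron and astrocyte lists it was not the highest. Whether the gap belongs to the precursor markers or to the whole array was not tested.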

How the results depend on the processing

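Over 986 recomputed values (44 results, 24 settings), 839 kept their direction and their side of the threshold. Erbb3 stayed lower throughout. Only the replicate block, a fit with the title number as a block, took its unadjusted p above 0.05, at a difference of -0.28, and its adjusted p lay between 0.135 and 1.0. The block is a weak comparison, since the groups share only the numbers 2 and 6, and arrays of the same number did not deviate together (r = -0.21 and -0.035), so they were not taken as pairs. With it no member passed (0), 1 pathway gene was lower and 0 higher, and 3 differences changed sign, Nrg2 at -0.03, Cx3cr1 at 0.01 and P2ry12 at 0.05.

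Erbb2 passed the unadjusted threshold, making 2 members, without HC replicates 2 and 6 (0.12), with array weights (0.13) and without HC replicate 2. Leaving out 1 array at a time gave 0.05 to 0.16 for Erbb2, -0.06 to 0.02 for Egfr, -0.05 to 0.01 for Erbb4, 1 to 2 members, and 0 to 4 pairs of members past the adjustment. Egfr also changed sign without HC replicates 2 and 6 (0.07) and with array weights (0.04), and its largest move was to -0.27 under the replicate block, which did not pass. Of the pathway genes, 1 to 2 were higher when single arrays were left out, 1 with the methods' t-test or with no floor, and 0 with arrays centred on their medians. Lower ones numbered 10 with that centring (8.49% of all genes lower, 1.53% higher) and 9 after quantile normalization (8.01% and 3.21%), and the cause was not tested. Without HC replicates 2 and 6 they stayed at 5 lower and 2 higher, while all genes turned to 3.78% lower and 5.57% higher. Limma called 14 probe sets under robust estimation with a mean-variance trend, 21 among probe sets with 1 gene and 1 after quantile normalization, with no member among them. All members were above noise on every array, but Erbb2 lay below the median of every array (7.42 at most, against 7.50 at least). Whether background limited Erbb2 was not tested.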
